A study of Homo sapiens with 12 samples.

Results

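The genes described here are 10 that handle iron or bear on ferroptosis, chosen by name for their known roles from the 60662 genes in the table of the series. They include FTH1, FTL, NCOA4, TFRC and SLC40A1, which store, release, import and export iron. The others are GPX4, AIFM2 and PRDX3, grouped here as defence against peroxides, and ACSL3 and ACSL4, which activate fatty acids. These 10 genes were chosen with earlier results of these data known, so counts of calls among them are descriptive. NCI-H295R is a human adrenocortical carcinoma line that makes cortisol. Confluent cultures spent 12 h without serum. They were then exposed for 24 h to vehicle (VEH, DMSO at 0.1%), to CJ28 at 30 µM or to metyrapone (MET) at 30 µM, and RNA of 4 samples per group was sequenced. CJ28 is a cortisol synthesis inhibitor made by the authors, and MET blocks 11β-hydroxylase, the last enzyme of cortisol synthesis. The cells come from a single tumour line, and the maintenance medium held ITS+, a supplement that supplies transferrin and selenium. Whether the serum-free medium held it is not given in the sources used here. The design text calls the samples biological replicates and says no more of how the cultures were separated, so p-values measure the spread between these samples.

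Iron enters most cells as transferrin bound to its receptor, is stored in ferritin shells of heavy and light chains, and leaves through ferroportin. Ferroptosis is a form of cell death in which iron drives the peroxidation of polyunsaturated phospholipids, and GPX4 and a coenzyme Q system hold it back. Adrenocortical cells are rich in mitochondrial steroid enzymes and polyunsaturated lipids and are known for their sensitivity to it. Much of the control of iron genes lies after transcription: the iron regulatory proteins IRP1 and IRP2 bind hairpins called iron responsive elements, blocking translation from a 5′ UTR and protecting the mRNA from decay in the 3′ UTR of TFRC.

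The hairpin sequences are shown because FTH1, FTL, SLC40A1 and TFRC carry them. The TPM values below are per gene and do not tell apart transcripts with and without a hairpin. Each run of 27 bases was read from GENCODE v44 transcripts on GRCh38, 5′ to 3′ on the transcript strand, and the capitals mark the 6-base loop.
FTH1, 5′ UTR, chr11:61967575-61967601, minus strand: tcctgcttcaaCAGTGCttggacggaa
FTL, 5′ UTR, chr19:48965336-48965362, plus strand: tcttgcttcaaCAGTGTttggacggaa
SLC40A1, 5′ UTR, chr2:189580662-189580688, minus strand: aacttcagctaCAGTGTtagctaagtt
TFRC, 3′ UTR, chr3:196050980-196051006, minus strand: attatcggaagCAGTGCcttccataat
TFRC, 3′ UTR, chr3:196050576-196050602, minus strand: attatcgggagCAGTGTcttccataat
TFRC, 3′ UTR, chr3:196050511-196050537, minus strand: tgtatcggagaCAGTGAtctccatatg
TFRC, 3′ UTR, chr3:196050464-196050490, minus strand: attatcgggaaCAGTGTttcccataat

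The motif searched was C, 5 bases, CAGTGN and 5 bases that pair with the 5 before the loop, with G-T pairs allowed, on the transcript strand. It was found in the 5′ UTR of 19 of 19441 canonical protein-coding transcripts (0.0977%) and in the 3′ UTR of 122 of 19550 (0.624%). Of the 10 genes, 4 held it. The other 6 had no such letters in their UTRs. Other forms of the element were not searched in any gene, so the hairpins printed above need not be all. A match is a description of the sequence and not a measured binding site.

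Values are TPM, a relative level per transcript length that can be compared between genes but keeps no read depth. Every sample sums to nearly the same total by construction, so read depth is unknown from the table, and no counting interval is given. Between 29463 and 31016 genes were above 0 in a sample. Nuclear protein-coding genes took 24.3% to 24.8% of TPM in VEH, 24.1% to 24.6% in MET and 21.3% to 21.4% in CJ28. The median gene of the 16815 tested lay at -0.13 on the log2 scale in CJ28 against VEH, and changes below are also given relative to it. All 7 adrenocortical markers examined, among them NR5A1, STAR and CYP11A1, were above 0 in every sample, and all 7 had a lower mean in CJ28. In VEH, CJ28 and MET in turn, the mean TPM of CYP17A1 was 49.0, 9.52 and 48.4, that of STAR was 55.9, 21.3 and 57.6, and that of HSD3B2 was 0.862, 0.192 and 0.805. The 9 markers of leukocytes, endothelium, fibroblasts and adrenal medulla summed to 1.15 to 2.21 TPM in VEH. Their sums were 0.67 to 1.00 in CJ28 and 1.08 to 1.64 in MET. TH was at 0 throughout, and PTPRC, PECAM1, CDH5 and PNMT were at or below 0.06. CHGA, of the adrenal medulla, was above 0 in every sample, at 0.44 to 1.17 TPM. COL1A1 ran from 0.05 to 0.85, CD68 from 0 to 0.48 and PDGFRB from 0 to 0.44. The part of the lower marker levels in CJ28 in the results was not tested. In bulk RNA, fewer cells of a kind and less RNA per cell cannot be told apart.

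In VEH the ferritin chains and the transferrin receptor stood among the most abundant of the tested genes. FTL averaged 330.2 ± 12.4 TPM (SD, n = 4), above 99.2% of tested genes, FTH1 303.9 ± 42.7 and TFRC 293.7 ± 9.21. The ranges of FTH1 overlapped those of both neighbours, whereas FTL and TFRC did not overlap. GPX4 followed at 125.9 ± 7.58, PRDX3 at 66.8 ± 2.03, NCOA4 at 34.2 ± 1.33, ACSL3 at 11.0 ± 0.398 and ACSL4 at 6.90 ± 0.348, each clear of its neighbours. SLC40A1 (1.13 ± 0.130) and AIFM2 (0.770 ± 0.187) lay at the bottom with overlapping ranges, above 22.4% and 14.4% of tested genes. In CJ28 the order differed at its lower end. ACSL4 and ACSL3 overlapped there at 6.26 ± 0.386 and 6.19 ± 0.508 TPM, and AIFM2 (0.673 ± 0.0532) had a higher mean than SLC40A1 (0.498 ± 0.0881), again with overlap.

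**Figure D1:**
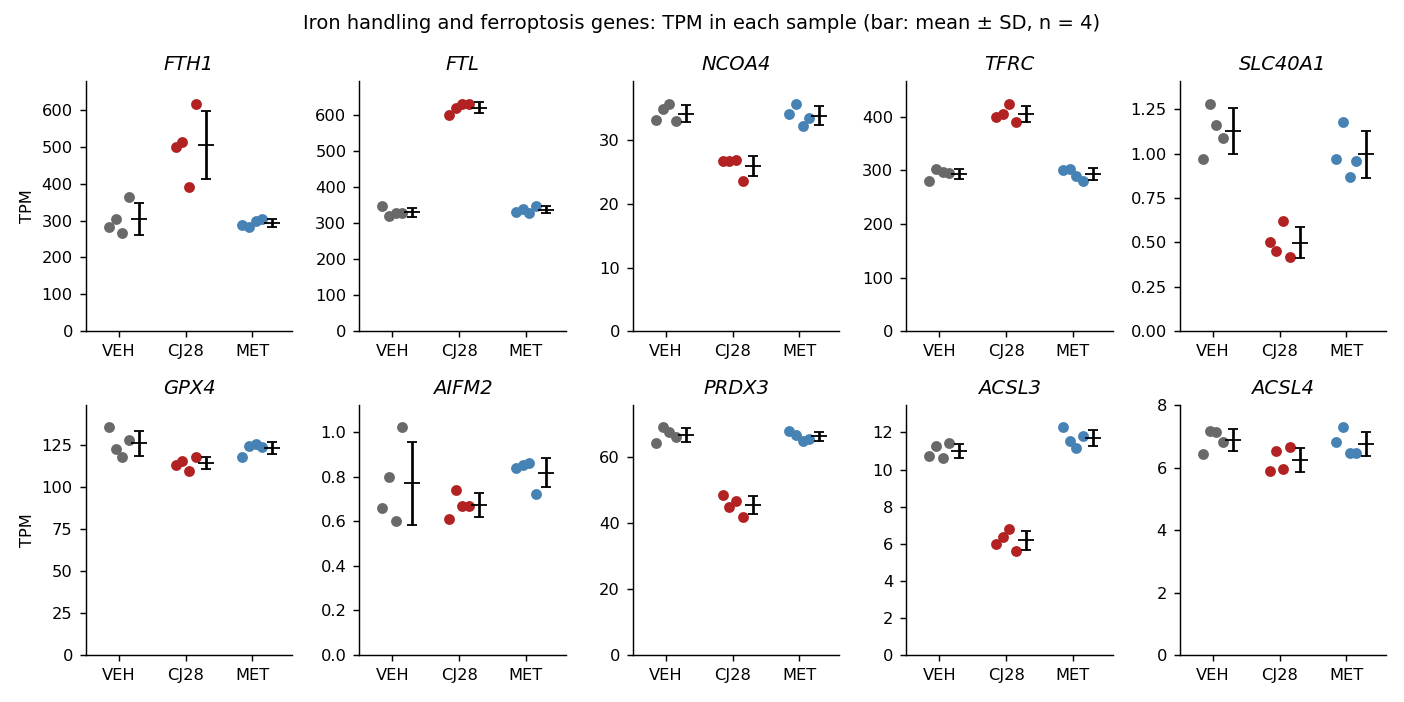
TPM of each of the 10 genes (vertical axes, each from 0) in the 4 VEH, 4 CJ28 and 4 MET samples, with bars for the mean ± SD. FTH1, FTL and TFRC sit higher in CJ28 than in any VEH or MET sample, NCOA4, SLC40A1, PRDX3 and ACSL3 sit lower, AIFM2 and ACSL4 overlap between VEH and CJ28, and GPX4 meets at a single value.

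CJ28 against VEH asks how the compound changed these RNAs over 24 h. All 10 genes entered the test, limma on log2(TPM + 0.1) over 16815 genes with Benjamini-Hochberg adjustment, and 8 were called at an adjusted p under 0.05. Of these, 3 were higher and 5 lower. Among all tested genes 57.0% were called, 19.9% higher and 37.1% lower, so most genes moved, and the count over the 10 genes is to be read against that share. After median-of-ratios scaling the split over all genes was 4925 higher and 4430 lower, and over nuclear protein-coding genes it was 4930 higher and 3277 lower of 12492 tested, whereas the 10 genes gave 3 higher and 4 lower both times. The median over the 10 genes was -0.15 beside -0.13 over all genes.

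FTL, the light chain that forms iron cores in ferritin (ENSG00000087086.15, chr19:48965309-48966879), had the highest fold change of the 10. Its TPM was 348, 318, 328 and 327 in VEH-1 to VEH-4, 598, 619.8, 629.6 and 630.2 in CJ28-1 to CJ28-4, and 331, 339.5, 326 and 348 in MET-1 to MET-4. Every CJ28 sample lay above every VEH and MET sample, by a gap many times the spread within a group. The log2 fold change was 0.91 (SE 0.033, adjusted p = 2.3e-10), or 1.88-fold, and 1.04 relative to the median gene.

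FTH1, the heavy chain that oxidises iron as it enters the shell (ENSG00000167996.16, chr11:61959718-61967634), rose as well but with more scatter. It measured 282, 303, 266 and 364 TPM in VEH, 499.8, 512, 392 and 617 in CJ28, and 289, 283, 299.7 and 306 in MET. CJ28-3 was the lowest and CJ28-4 the highest of the treated samples, and CJ28-3 was still above VEH-4, the highest control. The log2 fold change was 0.73 (SE 0.12, adjusted p = 0.00022), or 1.65-fold, and lay between 0.62 without CJ28-4 and 0.84 without CJ28-3. The ratio of FTH1 to FTL within a sample, which does not depend on scaling, was 0.922 ± 0.143 in VEH, 0.816 ± 0.146 in CJ28 and 0.875 ± 0.0351 in MET. No difference in this ratio from VEH passed an exact two-sided permutation test (p = 0.457 for CJ28 and p = 0.657 for MET, n = 4 per group). Their 5′ UTR hairpins, printed above, share most of their letters.

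NCOA4 is the receptor that carries ferritin to the lysosome for iron release (ENSG00000266412.5, chr10:46005088-46030714). Its TPM was 33.1, 34.9, 35.6 and 32.95 in VEH, 26.67, 26.65, 26.85 and 23.6 in CJ28, and 34.1, 35.7, 32.2 and 33.4 in MET. All CJ28 samples lay below the controls, and CJ28-4 lay below the other 3, which were close together. NCOA4 fell by 0.40 on the log2 scale (SE 0.049, adjusted p = 2.1e-05), or by 0.35 without CJ28-4 (adjusted p = 2.8e-05). Relative to the median gene the difference was -0.26. Thus the RNAs of the ferritin chains and of their turnover receptor moved in opposite directions.

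TFRC, the transferrin receptor (ENSG00000072274.13, chr3:196027183-196082096), rose in CJ28. It stood at 281, 303, 296 and 295.03 TPM in VEH, 399, 406, 424 and 390.5 in CJ28, and 301, 302, 289 and 279.6 in MET. The groups CJ28 and VEH did not overlap, and the spread within each was small. TFRC was 0.46 higher on the log2 scale (SE 0.036, adjusted p = 2.8e-07), or 1.38-fold, and 0.60 relative to the median gene. The receptor and both ferritin chains were thus higher together.

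SLC40A1, ferroportin, which exports iron (ENSG00000138449.10, chr2:189560579-189583758), was a low RNA that became lower. It was listed at 0.97, 1.28, 1.16 and 1.09 TPM in VEH, 0.50, 0.45, 0.62 and 0.42 in CJ28, and 0.97, 1.18, 0.87 and 0.96 in MET. No CJ28 sample reached the lowest VEH or MET sample. Ferroportin RNA changed by -1.04 on the log2 scale (SE 0.145, adjusted p = 5.4e-05), or 2.06-fold lower. At this level the size depends on the pseudocount: with 1 in place of 0.1 it was -0.51 (adjusted p = 6.3e-05), smaller than the -0.74 of ACSL3, and with 0.01 it was -1.17, the largest fall among the 10, as with 0.1.

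Of the lipid peroxide genes, GPX4 reduces phospholipid hydroperoxides with glutathione (ENSG00000167468.17, chr19:1103926-1106791). It measured 135, 123, 118 and 128 TPM in VEH, 113, 115, 109 and 118 in CJ28, and 118, 124, 126 and 124 in MET. CJ28-1 to CJ28-3 lay below the VEH range, and CJ28-4 equalled its lowest sample, VEH-3. Its log2 fold change of -0.14 (SE 0.043, adjusted p = 0.012) passed the test, but it lay close to the median shift of all genes (-0.009 relative to it), and it turned to 0.009 (adjusted p = 0.87) under median-of-ratios scaling and to 0.062 (adjusted p = 0.21) with TPM recomputed over nuclear protein-coding genes. No direction is therefore drawn for GPX4.

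PRDX3, a peroxiredoxin of the mitochondrial matrix (ENSG00000165672.7, chr10:119167720-119178812), fell. It was at 64.3, 69.1, 67.6 and 66.3 TPM in VEH, 48.4, 44.9, 46.6 and 41.9 in CJ28, and 68.2, 66.9, 64.9 and 65.7 in MET. The CJ28 samples were all below the controls. PRDX3 changed by -0.56 on the log2 scale (SE 0.043, adjusted p = 2.4e-07), or 1.47-fold lower, and -0.42 relative to the median gene.

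AIFM2, also called FSP1, regenerates the reduced coenzyme Q that traps lipid radicals (ENSG00000042286.15, chr10:70098223-70132934). It was listed at 0.66, 0.80, 0.60 and 1.02 TPM in VEH, 0.61, 0.74, 0.67 and 0.67 in CJ28, and 0.84, 0.85, 0.86 and 0.72 in MET. The groups overlapped, and VEH-4 was the highest of the 12. The log2 fold change was -0.15 with a 95% interval of -0.49 to 0.19 (adjusted p = 0.44). Both a fall and a rise within that interval remain compatible with the data.

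The acyl-CoA synthetases ACSL3 and ACSL4 activate different fatty acids, ACSL3 favouring monounsaturated ones and ACSL4 arachidonic and related polyunsaturated ones. ACSL3 (ENSG00000123983.14, chr2:222860942-222944639) was at 10.7, 11.3, 10.6 and 11.4 TPM in VEH, 5.98, 6.37, 6.79 and 5.61 in CJ28, and 12.3, 11.55, 11.2 and 11.8 in MET. Each CJ28 sample was well below all others. ACSL3 fell by 0.82 on the log2 scale (SE 0.059, adjusted p = 1.3e-07), or 1.77-fold. ACSL4 (ENSG00000068366.20, chrX:109624244-109733403) was at 6.44, 7.18, 7.16 and 6.82 TPM in VEH, 5.90, 6.52, 5.96 and 6.66 in CJ28, and 6.82, 7.29, 6.46 and 6.48 in MET. These groups overlapped. Its log2 fold change of -0.14 (95% interval -0.27 to -0.007, adjusted p = 0.069) missed the threshold, and it passed without VEH-1 (-0.17, adjusted p = 0.039) or without CJ28-4 (-0.17, adjusted p = 0.041).

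The ratio of ACSL4 to ACSL3 within a sample was 0.601, 0.638, 0.675 and 0.598 in VEH, 0.987, 1.02, 0.878 and 1.19 in CJ28, and 0.556, 0.631, 0.578 and 0.549 in MET. All 4 CJ28 ratios were above all VEH ratios. The log2 difference was 0.69 for CJ28 (exact two-sided permutation p = 0.0286, the smallest that 4 against 4 samples allow), and it did not pass after adjustment over the 4 ratio tests (adjusted p = 0.114). For MET the log2 difference was -0.12 (exact permutation p = 0.114, adjusted p = 0.228).

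**Figure D2:**
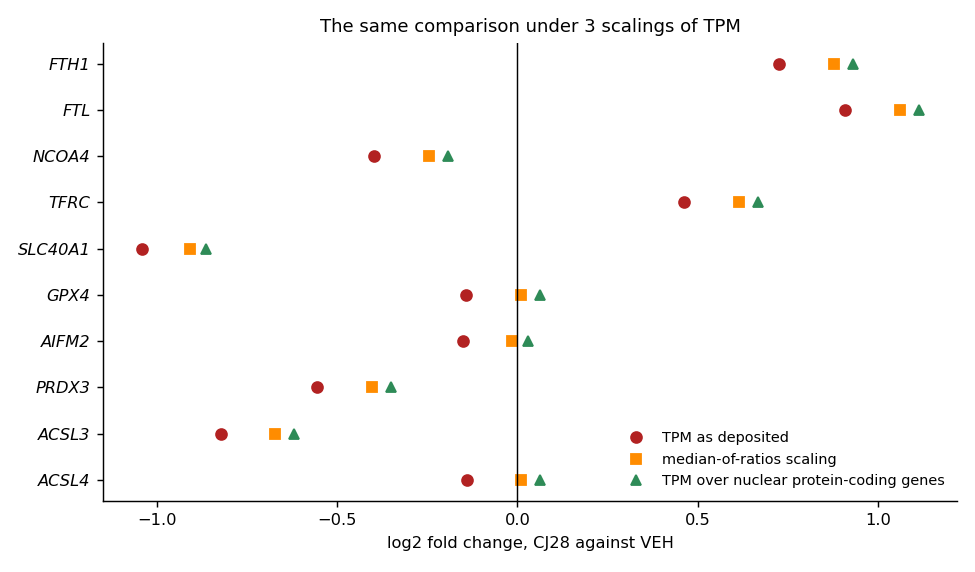
Log2 fold change of CJ28 against VEH (horizontal axis) for the 10 genes with TPM as deposited, after median-of-ratios scaling, and with TPM recomputed over nuclear protein-coding genes. FTH1, FTL and TFRC stay above 0 and NCOA4, SLC40A1, PRDX3 and ACSL3 below 0 in all 3, while GPX4 runs from -0.14 to 0.062, and ACSL4 and AIFM2, which were not called, also cross 0.

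Scaling moved all 10 values the same way, which follows from dividing every gene of a sample by the same factor. The 3 rises became larger, FTL reaching 1.06 and 1.11, FTH1 0.88 and 0.93, and TFRC 0.62 and 0.67 under the 2 scalings. The falls became smaller, NCOA4 to -0.24 and -0.19, PRDX3 to -0.40 and -0.35, ACSL3 to -0.67 and -0.62, and SLC40A1 to -0.91 and -0.86. These 7 calls held under both. As a share of nuclear protein-coding TPM, the 10 genes together took 0.478% ± 0.0147 in VEH, 0.811% ± 0.0379 in CJ28 and 0.479% ± 0.0037 in MET (SD, n = 4), a sum set mostly by the ferritin chains and TFRC.

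MET against VEH asks the same of an enzyme inhibitor at the same dose and time. None of the 10 genes was called by limma, 0 had an unadjusted p under 0.05, and the smallest adjusted p was 0.94. All 10 ranges overlapped, and the share of all tested genes with such overlap is not given here. Among all tested genes 1 was called (0.00595%) and 874 had an unadjusted p under 0.05. The log2 fold changes ran from -0.16 for SLC40A1 to 0.10 for AIFM2. For the abundant iron genes the 95% intervals were narrow, -0.045 to 0.099 for FTL and -0.083 to 0.074 for TFRC. FTH1 was less tightly bounded, at -0.30 to 0.22, and SLC40A1 and AIFM2 reached -0.48 and 0.44 at their outer bounds.

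CJ28 against MET compares the 2 inhibitors directly at matched dose and time. By limma 8 of the 10 genes were called, 3 higher and 5 lower in CJ28, where 55.5% of all tested genes were called, 20.9% higher and 34.6% lower. Under the 2 scalings the split over all genes was 4824 higher to 4391 lower and 5062 to 3149. The 3 comparisons share samples, so their values are given side by side and not as separate evidence. FTL was higher in CJ28 by 0.88 (adjusted p = 3.1e-10), FTH1 by 0.76 (adjusted p = 0.00015) and TFRC by 0.47 (adjusted p = 2.7e-07) on the log2 scale. The log2 difference was -0.91 for ACSL3 (adjusted p = 5e-08), -0.88 for SLC40A1 (adjusted p = 0.00023), -0.55 for PRDX3 (adjusted p = 2.9e-07) and -0.38 for NCOA4 (adjusted p = 2.9e-05). For these 7 genes the compounds therefore differed beyond the spread between samples. GPX4 was called at -0.11 (adjusted p = 0.044), a call that was lost in 13 of 22 alternative settings, among them the 2 scalings, where the value turned to 0.012 and 0.081. ACSL4 (-0.11, 95% interval -0.24 to 0.022) and AIFM2 (-0.25, 95% interval -0.59 to 0.092) did not pass.

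**Figure D3:**
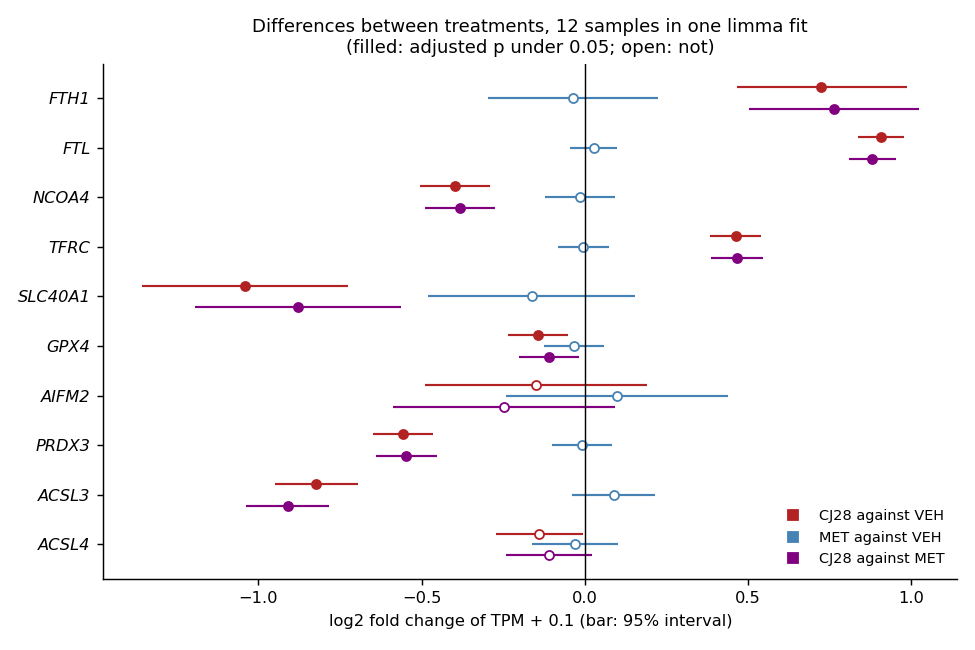
Log2 fold change of TPM + 0.1 with its 95% interval (horizontal axis) for the 10 genes in the 3 comparisons, filled where the adjusted p was under 0.05. All MET against VEH values lie near 0, between -0.16 and 0.10, while the CJ28 values against VEH and against MET lie side by side. The GPX4 values below 0 change sign under other scalings.

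Beyond the 10 genes, 110 further genes of the same pathways were counted in 7 lists, and 91 of them had enough TPM to be tested. The lists too were chosen with earlier results of these data known, so the shares called are descriptive. In CJ28 against VEH 63 were called (69.2% of those tested, beside 57.0% of all genes), 25 higher and 38 lower, and the median was -0.08 beside -0.13. The 57.0% is over tested genes of every class. The share was higher over nuclear protein-coding genes, at 8207 of 12492, where 65 of the 91 were called. At a mean of at least 1 TPM it was 8421 of 13445, beside 63 of 87 list genes. Shares of single lists below are set against the 57.0% only. The split moved with scaling, to 35 higher and 27 lower after median-of-ratios scaling and to 42 and 23 over nuclear protein-coding genes. In MET against VEH none of the 91 was called by limma, and 4 had an unadjusted p under 0.05, beside 874 of all 16815 tested genes. In CJ28 against MET 65 were called (71.4% of those tested, beside 55.5% of all genes). Of these, 28 were higher and 37 lower, where 20.9% of all genes were called higher and 34.6% lower. Under the same scalings the split was 32 and 29 and then 38 and 24.

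In the lipid peroxide defence list, 18 of 23 tested genes (78.3%, beside 57.0% of all genes) were called in CJ28 against VEH, 7 higher and 11 lower, and the split was 10 to 8 and 11 to 7 under the 2 scalings. The partners of the cystine importer that feeds glutathione synthesis rose most. SLC3A2 measured 54.8 ± 2.08 TPM in VEH and 216.8 ± 2.86 in CJ28, or 1.98 higher on the log2 scale (SE 0.03, adjusted p = 1.6e-13), and SLC7A11 measured 9.52 ± 0.762 and 28.1 ± 1.15 TPM, at 1.55 (SE 0.057, adjusted p = 2.4e-10). PRDX1, a cytosolic peroxiredoxin, fell from 154.8 ± 6.07 to 74.9 ± 4.68 TPM, at -1.05 (adjusted p = 1.7e-09). PDSS1, which builds the side chain of coenzyme Q, fell by 0.83 (adjusted p = 2.2e-05). These are the largest rises and falls of the list. TXNRD1 also rose, at 0.72 (adjusted p = 3.1e-09), and PRDX2 also fell, at -0.71 (adjusted p = 1.8e-10). PRDX3, among the 10 genes, fell as PRDX1 did.

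In the list for polyunsaturated phospholipid synthesis and oxidation, 5 of 9 tested genes were called, 55.6% beside 57.0% of all genes, and all 5 were lower, where 37.1% of all genes were called lower. Under the 2 scalings 5 were again lower, beside 1 and 3 higher. FADS1, a fatty acid desaturase, fell from 30.8 ± 1.54 to 13.0 ± 0.425 TPM, at -1.24 (adjusted p = 5e-10). LPCAT3, which places polyunsaturated chains in phospholipids, fell from 7.15 ± 0.388 to 3.69 ± 0.281 TPM, at -0.94 (adjusted p = 6.5e-07). Outside this list, ACSL3 also fell, but it favours monounsaturated fatty acids. ACSL4 missed the threshold by limma at a log2 fold change of -0.14. It was at 0.011 after median-of-ratios scaling and 0.063 over nuclear protein-coding genes (adjusted p = 0.89 and 0.38). No fall is therefore drawn for ACSL4. The other 7 genes of this list, most of them lipoxygenases, were too low to test.

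Among iron uptake genes 3 of 6 tested were called (50.0%, beside 57.0% of all genes), 2 higher and 1 lower, or 2 higher and 0 lower under each scaling. SLC11A2, the endosomal iron transporter DMT1, rose by a log2 fold change of 0.60 (10.7 ± 0.726 to 16.2 ± 0.438 TPM, adjusted p = 3e-06), and SLC39A14, a metal importer, by 0.23 (adjusted p = 0.0031), or by 0.43 over nuclear protein-coding genes. SLC39A8, its relative, was called at -0.26 (adjusted p = 0.0035), a call lost under both scalings. Of storage and ferritin turnover genes 5 of 8 (62.5%) were called, 2 higher and 3 lower, or 2 to 2 and 3 to 1 under the scalings. ATG7 and TAX1BP1, of autophagy, rose by 0.51 and 0.38 on the log2 scale (adjusted p = 4.7e-05 and 7.2e-06), and TAX1BP1 by 0.59 over nuclear protein-coding genes. PCBP2, an iron chaperone that also binds RNA, fell by 0.52 (adjusted p = 7.8e-05), or by 0.31 over nuclear protein-coding genes, and MAP1LC3B was called at -0.29 (adjusted p = 0.016), which was lost under both scalings and without CJ28-3.

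Of the export and systemic control list 4 of 6 tested genes (66.7%, beside 57.0% of all genes) were called, 1 higher and 3 lower, or 1 to 2 under each scaling. SLC48A1, a haem transporter, rose by 0.73 (5.70 ± 0.127 to 9.55 ± 0.806 TPM, adjusted p = 6.6e-07). FLVCR1, a transporter linked to haem and choline, fell by 0.92 (6.51 ± 0.608 to 3.41 ± 0.609 TPM, adjusted p = 1.5e-05), and BMP6, a signal that induces hepcidin in the liver, fell by 0.87 (adjusted p = 2.3e-07). HEPH was the other gene called lower, at -0.26 (adjusted p = 0.0056), a call lost under both scalings. Beside the fall in SLC40A1, FLVCR1 was thus lower and SLC48A1 higher.

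Of the 8 iron sensing genes 4 were called (50.0%, beside 57.0% of all genes), 2 higher and 2 lower, or 5 higher and 1 lower under each scaling. IREB2, which encodes IRP2, a reader of the hairpins printed above, fell from 24.7 ± 1.80 to 17.4 ± 1.42 TPM, at -0.50 (adjusted p = 4.1e-05), or -0.30 over nuclear protein-coding genes. FBXL5, the ubiquitin ligase subunit that removes IRP2 when iron is present, rose from 31.4 ± 1.21 to 38.2 ± 0.972 TPM, at 0.28 (adjusted p = 3.8e-05), or 0.49 over nuclear protein-coding genes. ACO1, which encodes IRP1 and was added after its values were seen, was at 8.97 ± 0.345 and 8.94 ± 0.175 TPM (log2 fold change -0.004, SE 0.052, adjusted p = 0.96). HIF1A was called at 0.07 (adjusted p = 0.038), a call lost in 10 of 22 alternatives but kept at 0.28 (adjusted p = 4.9e-07) over nuclear protein-coding genes, and ZFP36L1 at -0.44 (adjusted p = 0.013), lost under both scalings. RNA levels of IREB2 and FBXL5 say nothing of the amount or the binding of IRP2 protein, which were not measured.

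In the list of mitochondrial iron, iron-sulfur cluster and haem genes, 24 of 31 (77.4%, beside 57.0% of all genes) were called, 11 higher and 13 lower, or 14 to 9 and 17 to 7 under the 2 scalings. HMOX1, haem oxygenase, which frees iron from haem, had the highest fold change of the 91 tested genes. It went from 5.11 ± 0.415 to 25.5 ± 0.772 TPM, 4.92-fold (log2 fold change 2.30, SE 0.077, adjusted p = 1.1e-10), against 5.08 ± 0.558 TPM in MET. ALAS1, the first enzyme of haem synthesis, rose from 24.1 ± 0.943 to 43.3 ± 0.478 TPM, at 0.84 (adjusted p = 7.6e-10). NFS1, the cysteine desulfurase of cluster assembly, and IBA57, a late assembly factor, fell by 0.86 and 0.91 on the log2 scale (adjusted p = 3.4e-08 and 0.0001). IBA57, near 1 TPM, was at -0.49 with a pseudocount of 1. The 24 list genes named here were picked for their rises and falls in CJ28 against VEH. Their split of 11 higher and 13 lower therefore describes the rule and not the lists. Of the 24, 23 were also called by limma in CJ28 against MET, the exception being MAP1LC3B (adjusted p = 0.11). Their MET levels lay near VEH, at log2 fold changes of -0.14 to 0.14, so the count against MET is no separate evidence.

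**Figure D4:**
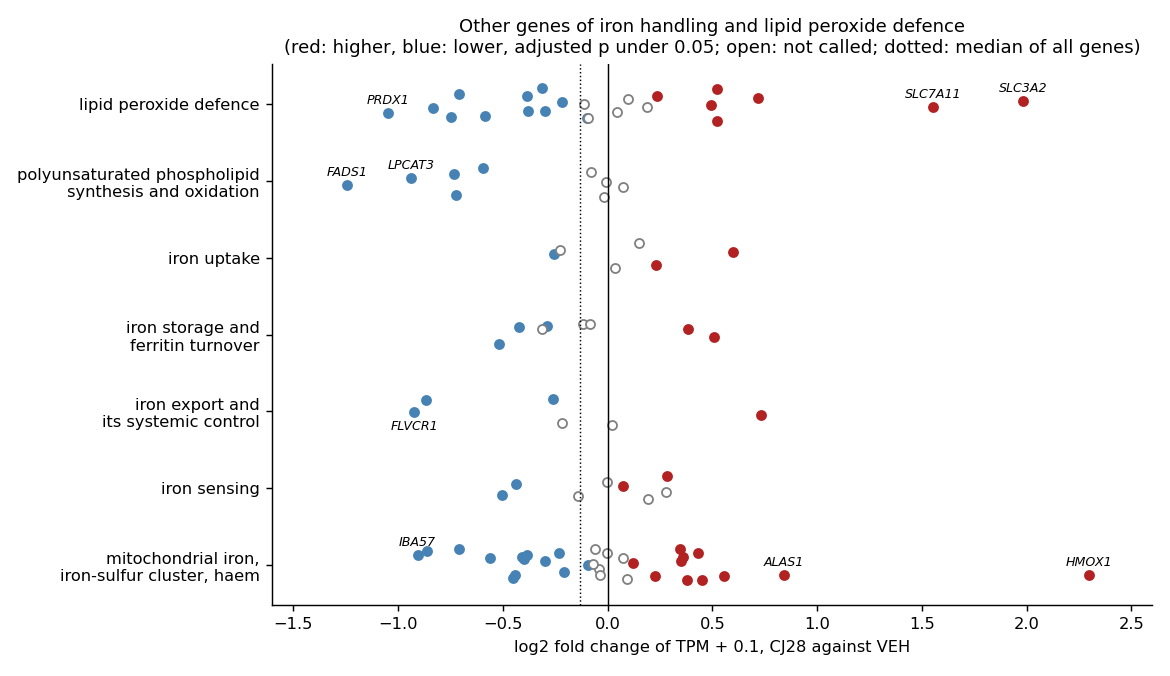
Log2 fold change of CJ28 against VEH (horizontal axis) for the 91 tested pathway genes in their 7 lists (rows), each point a gene, red where called higher, blue where called lower and open where not called, with a dotted line at the median of all genes, -0.13. HMOX1 at 2.30 and SLC3A2 at 1.98 stand farthest to the right, and FADS1 at -1.24 farthest to the left.

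The genes whose pattern over the 12 samples was nearest to FTL, measured as the root mean square difference of log2(TPM + 0.1) centred on VEH among 13298 genes, were FZD7 (0.0503), HDAC5 (0.0599) and RPL12 (0.0631). Those nearest to SLC40A1 were ATPSCKMT (0.115), SNRPE (0.126) and RBM4B (0.131). The table also lists 47 pseudogenes named after FTH1, FTL, PRDX3 or NCOA4, which share sequence with their parents and could take some of their reads. None reached a mean of 1 TPM, the highest being 0.868, and they held at most 2.0% of the summed TPM of a parent. Adding them to the parent changed no call.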

How the data were processed

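RNA-seq of 12 NCI-H295R samples was analysed. The deposited values are TPM. The authors depleted ribosomal RNA, made stranded libraries, trimmed reads with Cutadapt (version 2.8), aligned them to GRCh38 with STAR (version 2.7.10b) and quantified genes with RSEM (version 1.3.3), as the methods and the submitters' processing notes state. RSEM divides shared reads between similar genes. The authors' own test, DESeq2, needs counts, which were not used here. All 12 columns mapped to samples by title, and no 2 samples were identical.

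limma 3.58.1 in R 4.3.3 (lmFit and eBayes, with a trend) was applied to log2(TPM + 0.1) of genes at 0.5 TPM or more in at least 4 samples. The 3 groups shared a fit, and no covariate was used. Two-sided p-values were adjusted over all tested genes by Benjamini-Hochberg, and called means an adjusted p under 0.05. The procedure was also run on simulated data in which few genes were changed, which does not bear on a shift of most genes. Ratios were compared by exact permutation of samples. Equal replicate numbers did not deviate together (mean correlation 0.0236 for CJ28 and VEH), so no pairing was used. Gene positions are those of the table on GRCh38, and hairpins were searched in GENCODE v44 transcripts.

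All 10 members are named, with, from each pathway list, up to 2 genes with the largest rise and 2 with the largest fall among called genes of at least 1 TPM whose groups did not overlap. The members and lists were chosen with earlier results of these data known. The alternatives were other pseudocounts, filters and scalings, a fit of 2 groups only, a replicate block, no trend, pseudogenes added, and each sample left out.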

Additional observations from a re-analysis of the deposited data

Results flagged for a closer look

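NCOA4 in CJ28-4 was 23.6 TPM, below the other 3 CJ28 samples at 26.65 to 26.85 TPM. The gap to the nearest sample was 0.938 of the range of the group, past Dixon's critical value for 4 samples at the 95% level. AIFM2 in MET-4 was 0.72 TPM, below the other 3 MET samples at 0.84 to 0.86 TPM, with a gap of 0.857 of the range. Of 30 groups of samples tested over the 10 genes, 2 passed this value, and chance gives about 1 in 20.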

How the results depend on the processing

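Over 22 alternatives the number of the 10 genes called ran from 7 to 9 in CJ28 against VEH and from 7 to 8 in CJ28 against MET, and was 0 in MET against VEH. Of the other pathway genes, 57 to 65, 60 to 66 and 0 were called. The log2 fold change of GPX4 changed sign under median-of-ratios scaling and over nuclear protein-coding genes, to 0.009 and 0.062 in CJ28 against VEH and to 0.012 and 0.081 in CJ28 against MET. A filter on a mean of 1 TPM left AIFM2 and SLC40A1 untested. Equal replicate numbers share only a number. With a replicate block 8, 0 and 7 of the 10 genes were called in CJ28 against VEH, MET against VEH and CJ28 against MET. The ratio of ACSL4 to ACSL3 kept a log2 difference of 0.692 under the block (exact permutation p = 0.12, about the smallest that 4 pairs allow). For MET this difference lay between -0.162 and -0.0832 with each sample left out, and passed unadjusted without MET-2 (-0.162, exact permutation p = 0.029). The cause was not tested. TPM gives no reads per gene, so the counting error of SLC40A1 and AIFM2, near 1 TPM, was not computed.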
